A study of Mus musculus with 6 samples.

Results

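Kinesins are motor proteins that move along microtubules, and their genes were described here as 1 family split by role. Members were the protein-coding genes whose mouse symbol is Kif followed by a digit or Kifc followed by a digit from 1 to 5, which gave 43 of the 55487 gene identifiers in the table. They comprised 14 spindle kinesins, 15 cargo kinesins and 14 others that act at cilia, at microtubule ends or elsewhere. Kif1bp, which matches the symbol pattern, encodes a protein that binds kinesins and is not a motor, so 42 members are motors. A further 4 matching symbols were antisense or pseudogene entries with 0 to 2 counts in every sample and were left out.

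Cultures labelled as endothelial cells were prepared from C57BL/6 mouse skin with CD31 beads, and bulk RNA sequencing compared 3 samples in normal glucose (5 mmol/L) with 3 samples under high glucose (20 mmol/L), both for 48 hours. Each isolation pooled 4 to 6 mice aged 2 to 3 months, cells were used up to passage 6, and both sexes entered the study. Total counts ran from 120192466 to 146881356 per sample. The study counts its sequencing replicates as mice, while its methods pool animals for each isolation and the labels give only a replicate number. Whether the replicates came from separate isolations was not settled, and P values measure the spread between these samples, part of which may be technical.

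The endothelial label was checked against 12 marker genes before the kinesins were read. Pecam1, which encodes CD31 itself, had 19, 12 and 19 counts in the normal glucose samples and 9, 13 and 18 in the high glucose samples. Sox17 had 0 counts in all 6 samples, while Tie1, Emcn and Cldn5 reached no more than 9 counts in any sample and Erg and Esam no more than 23. Other endothelial genes were measurable: Kdr had 576 to 777 counts per sample, Cdh5 231, 242 and 236 in normal glucose and 130, 91 and 125 in the other group, Tek 151 to 302 and Vwf 73 to 144. Of the list, 8 genes were tested, and 2 were called lower and 2 higher by edgeR (2 and 1 by DESeq2, which gave Erg no adjusted P). By edgeR 14.5% of all tested genes were called lower and 16.9% higher. The list summed to 20.8, 19.8 and 20.6 CPM (counts scaled by TMM to a common library size) in normal glucose. Under high glucose it summed to 19.0, 19.2 and 18.7 CPM, and Egfl7 was its most abundant member in both groups. Fibroblast markers stood far above this, at 41600, 38600 and 41800 summed CPM in normal glucose and 73300, 75700 and 70800 under high glucose, with Col3a1 the most abundant of 10. In all, Sox17, Tie1, Emcn and Cldn5 were at or near 0 counts, and Pecam1, Erg and Esam had no more than 23 in any sample. Kdr, Cdh5, Tek, Vwf and Egfl7 were present at a low level. The samples are therefore called cultures here and are given no cell type.

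Kinesins use ATP to step along microtubules, most of them toward the growing plus end. Spindle kinesins separate the poles, move chromosomes and build the midzone of dividing cells, so their transcripts are made mainly by cells that are cycling. Cargo kinesins carry vesicles, mitochondria and RNA in dividing and resting cells alike, and a smaller set works in cilia or trims microtubule ends.

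High glucose was accompanied by lower levels of every listed spindle kinesin that could be tested, while cargo kinesins moved little and in both directions. All 13 tested spindle kinesins were called lower and 0 higher, as they also were by DESeq2, with a median log2 fold change of -1.10 and a range from -1.34 for Kif20a to -0.89 for Kif22. Among the 15 cargo kinesins 1 was called lower and 5 higher, with a median of 0.054, and among 12 tested others 1 was called lower and 5 higher, with a median of 0.27. The cargo calls were 4 lower and 1 higher with library size scaling, 2 and 3 without normal glucose replicate 1, 1 and 3 without normal glucose replicate 3 and 1 and 2 without any 1 of the high glucose samples. Those of the others were 1 and 3 with library size scaling or without normal glucose replicate 1, 0 and 3 without high glucose replicate 1 and 0 and 4 without high glucose replicate 3. Over all 19015 tested genes, 14.5% were called lower and 16.9% higher by edgeR's quasi-likelihood test at an adjusted P under 0.05, and the median was 0.0062. Calls were more frequent in both directions among the 14808 tested protein-coding genes, with 2387 lower, 2990 higher and a median of 0.018. Scaling by library size alone moved the median of all genes by -0.11, turned the cargo median to -0.061 and lowered that of the others to 0.16. Relative to the median of all genes the spindle, cargo and other medians were then -1.11, 0.048 and 0.27, which is no separate check, because this scaling shifts all genes nearly alike. Lower genes made up 46.2% of all calls, against 72.9% with library size scaling and 56.5% with upper quartile factors. In bulk RNA, fewer cycling cells and less RNA per cell cannot be told apart.

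**Figure D1:**
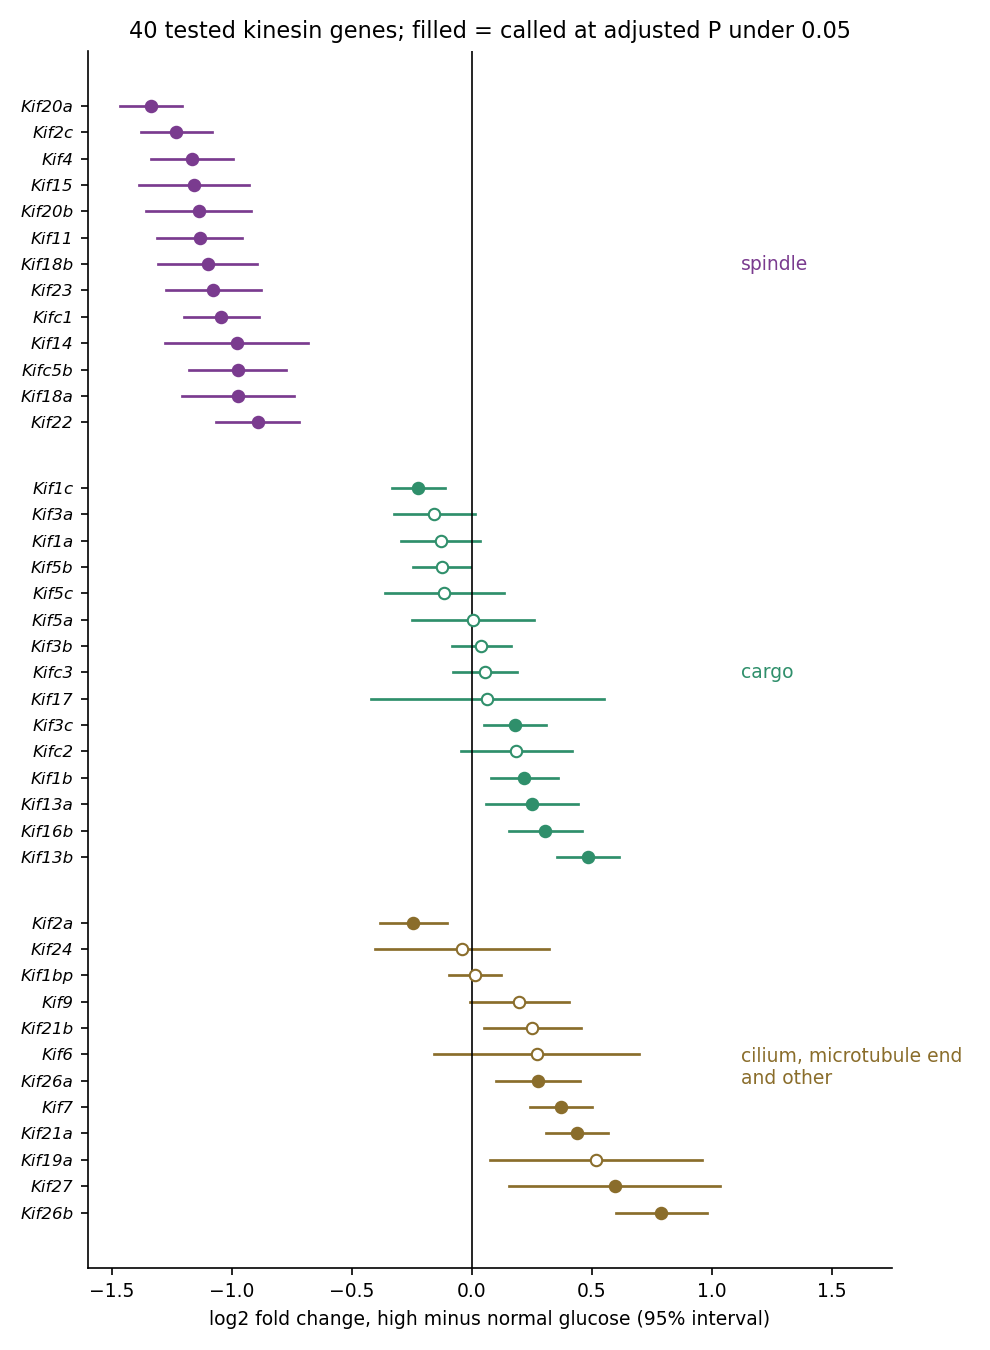
Log2 fold change of high minus normal glucose (x axis) with its 95% interval for the 40 tested kinesin genes, grouped by role; filled points were called at an adjusted P under 0.05. The 13 spindle kinesins lie between -1.34 and -0.89, apart from the cargo kinesins, which lie between -0.22 and 0.48 (under library size scaling the cargo median is -0.061 in place of 0.054).

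The groups of every tested spindle kinesin were without overlap, high below normal, in 13 of 13, where 21.3% of all tested genes had such an order and 25.1% the opposite one. A fall of at least the size of Kif22's was seen in 840 tested genes, or 4.42%. Kif2b, the remaining spindle kinesin and a relative of Kif2c, had 0 counts in all 6 samples, where the floor of 3 counts is 0.0211 to 0.0258 CPM. This floor covers counting error only.

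Motors of the spindle midzone and of the final cut between daughter cells are described first. Kif20a, which brings the chromosomal passenger complex to the midzone, was measured at 35.8, 38.3 and 39.7 CPM in normal glucose and at 14.9, 14.6 and 15.5 CPM under high glucose. Its lowest normal glucose sample was far above its highest high glucose sample, and its log2 fold change was -1.34 ± 0.058 (SE; edgeR adjusted P = 1.37e-07). Kif23, the motor subunit of centralspindlin, was at 9.22, 9.04 and 9.78 CPM against 4.49, 4.80 and 4.00 CPM. Samples of either group sat close together, and the change was -1.08 ± 0.090 (edgeR adjusted P = 1.07e-05). Kif4, a chromosome-bound motor that also limits the length of the midzone, gave 10.9, 11.3 and 10.2 CPM and then 4.65, 4.86 and 4.90 CPM. No high glucose sample came near the normal glucose range, with a change of -1.17 ± 0.077 (edgeR adjusted P = 2.03e-06). Kif14, which acts in cytokinesis, was at 3.29, 4.36 and 4.47 CPM against 2.03, 2.23 and 1.88 CPM. Normal glucose replicate 1 was the lowest of its group but still above every high glucose sample, and the change was -0.98 ± 0.13 (edgeR adjusted P = 0.000317). Kif20b, another cytokinesis motor, stood at 8.86, 11.2 and 9.33 CPM and at 4.53, 4.40 and 4.41 CPM. Its high glucose samples were nearly equal while normal glucose replicate 2 was the highest, and the change was -1.14 ± 0.099 (edgeR adjusted P = 1.41e-05).

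Pole-separating and pole-focusing motors come next. Kif11, which slides antiparallel microtubules apart to keep the spindle bipolar, had 17.3, 16.3 and 16.3 CPM in normal glucose and 7.05, 8.38 and 7.30 CPM under high glucose. High glucose replicate 2 was the highest of its group and remained below every normal glucose sample, with a log2 fold change of -1.14 ± 0.079 (edgeR adjusted P = 3.1e-06). Kif15, which assists Kif11 in holding the poles apart, was at 6.38, 5.72 and 5.27 CPM against 2.66, 2.74 and 2.40 CPM. The groups were well separated, at -1.16 ± 0.10 (edgeR adjusted P = 1.75e-05). Kifc1, a minus-end motor that gathers microtubules at the poles, was the second most abundant spindle kinesin per kb of exon, at 24.5, 21.8 and 24.6 CPM against 12.0, 11.6 and 10.8 CPM. Its close relative Kifc5b was at 7.29, 6.85 and 7.66 CPM against 3.88, 3.38 and 3.81 CPM. Neither gene had overlapping groups, with changes of -1.04 ± 0.071 for Kifc1 and -0.98 ± 0.091 for Kifc5b. The split between them is uncertain, because 33.5% of the 75-base words of the Kifc1 transcript also occur in Kifc5b. Added together they gave 31.8, 28.6 and 32.3 CPM against 15.9, 15.0 and 14.6 CPM, a sum that does not rest on how reads were divided between them.

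Motors that act on chromosomes and on microtubule ends completed the list. Kif2c, which dismantles microtubules at centromeres, was measured at 13.8, 13.3 and 13.8 CPM in normal glucose and 5.91, 5.73 and 5.78 CPM under high glucose. Replicates were tighter than for most other spindle kinesins, and the log2 fold change was -1.23 ± 0.067 (edgeR adjusted P = 5.64e-07). Kif22, which pushes chromosome arms toward the spindle equator, was at 13.8, 11.8 and 13.1 CPM against 7.20, 6.80 and 6.84 CPM. This was the smallest of the 13 falls, at -0.89 ± 0.079 (edgeR adjusted P = 1.52e-05), and its groups were still without overlap. Kif18a, which damps chromosome movements at the metaphase plate, had 3.75, 3.15 and 3.45 CPM and then 1.76, 1.69 and 1.82 CPM. Its relative Kif18b, which shortens astral microtubules, had 7.42, 7.96 and 7.90 CPM and then 3.95, 3.28 and 3.61 CPM. Both were lower in each high glucose sample than in any normal glucose sample, by -0.98 ± 0.11 and -1.10 ± 0.093 on the log2 scale. Each of the 13 calls held in all 13 other fits, which included every fit without 1 of the 6 samples.

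**Figure D2:**
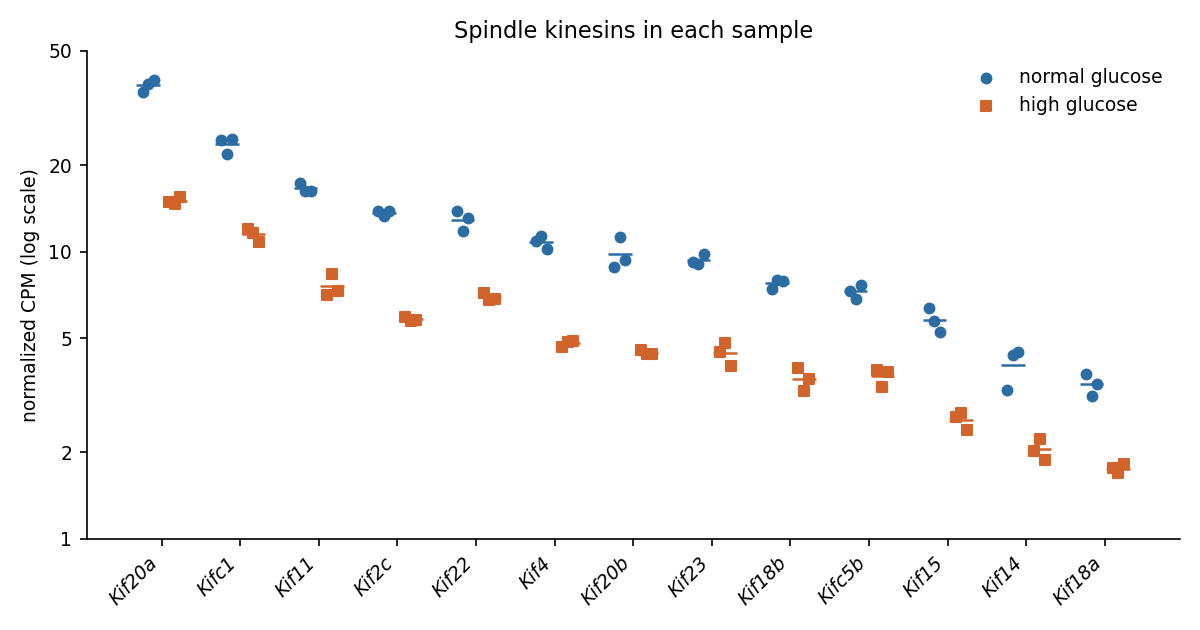
Normalized CPM (log scale) of the 13 tested spindle kinesins in each of the 3 normal glucose (circles) and 3 high glucose (squares) samples, with short lines at group means. Kif20a is highest and Kif18a lowest, also per kb of exon, and for each gene all 3 high glucose samples lie below all 3 normal glucose samples.

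Reads of some spindle kinesins could have come from a neighbour, since the strand setting of the counting is not given in the sources used here. Kif20a shares 29.3% of its exon bases with Cdc23 on the opposite strand, and Cdc23 was at 62.2, 66.0 and 68.1 CPM in normal glucose and 72.5, 69.9 and 72.5 CPM under high glucose. Kif4 shares 15.1% of its exon bases with Pdzd11 on the opposite strand, at 36.4, 30.8 and 33.1 CPM and then 30.2, 33.1 and 31.8 CPM. Neither neighbour was called, at log2 fold changes of 0.13 and -0.078.

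Since the spindle kinesins moved together, the promoters of the family were read for 4 short motifs on either strand: CCAAT, the box bound by NF-Y; TTTGAA, the core of the cell cycle homology region bound by DREAM and by MuvB with B-MYB and FOXM1; TTCCCGC, an E2F site; and TAAACA, a forkhead site. RefSeq promoters (GRCm38.p6, 250 bases before to 50 after a start) were matched for 34 of the 43 genes. There was no entry for Kif20a, Kif13b, Kif5a, Kif5b, Kifc2, Kifc3, Kif19a, Kif21b and Kif28. Some genes had more than 1 window, so the 12 cargo promoters came from 10 genes and the 13 of the others from 11. The windows of Kif1b overlap and hold the same CCAAT matches, which are counted in each. Windows of the close relatives Kifc1 and Kifc5b are much alike in sequence and are counted separately. TTTGAA was present in 11 of 13 spindle promoters (84.6%), in 1 of 12 cargo promoters (8.33%) and in 2 of 13 promoters of the others (15.4%), against 17.9% of 32851 promoters of the same length. CCAAT was present in 9 of 13 spindle promoters (69.2%), 4 of 12 cargo promoters (33.3%) and 5 of 13 others (38.5%), against 37.4% of all promoters. Both motifs occurred together in 8 spindle promoters (61.5%), 0 cargo promoters and 2 others (15.4%), against 6.95%. The E2F letters were in 0 spindle, 0 cargo and 2 other promoters against 4.6% of all promoters, and the forkhead letters in 1 spindle promoter, that of Kif2c, against 13.4%. A match describes letters in the window and is neither a binding site nor a cause, and no match says only that these letters are not there.

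The promoters of Kif11, Kif18b, Kif23 and Kifc1 show the arrangement in spindle kinesins from each class, that of Kif26b is the promoter of the kinesin with the largest rise, and that of Kif1c, the cargo kinesin called lower, holds none of the motifs. They were chosen after their values were seen. Capitals mark matches to the 4 motifs, so that ATTGG is CCAAT and TTCAAA is TTTGAA read on the other strand. Kif11 lies at chr19:37376132-37376431 on the plus strand, Kif18b at chr11:102925075-102925374, Kif23 at chr9:61946750-61947049 and Kifc1 at chr17:33890584-33890883, these 3 on the minus strand, and Kif26b at chr1:178528875-178529174 and Kif1c at chr11:70700298-70700597 on the plus strand.
Kif11: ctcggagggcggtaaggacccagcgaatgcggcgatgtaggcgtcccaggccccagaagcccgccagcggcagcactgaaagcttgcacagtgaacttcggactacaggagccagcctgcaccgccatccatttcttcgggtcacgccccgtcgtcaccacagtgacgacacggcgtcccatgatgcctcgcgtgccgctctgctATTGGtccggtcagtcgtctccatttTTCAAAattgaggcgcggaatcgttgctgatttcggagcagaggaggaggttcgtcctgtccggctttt
Kif18b: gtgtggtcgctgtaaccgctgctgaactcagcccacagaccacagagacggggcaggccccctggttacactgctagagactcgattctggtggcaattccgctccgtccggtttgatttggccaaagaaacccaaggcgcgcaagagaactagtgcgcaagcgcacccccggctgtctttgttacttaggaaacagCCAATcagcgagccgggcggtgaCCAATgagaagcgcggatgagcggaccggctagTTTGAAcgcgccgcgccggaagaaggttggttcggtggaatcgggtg
Kif23: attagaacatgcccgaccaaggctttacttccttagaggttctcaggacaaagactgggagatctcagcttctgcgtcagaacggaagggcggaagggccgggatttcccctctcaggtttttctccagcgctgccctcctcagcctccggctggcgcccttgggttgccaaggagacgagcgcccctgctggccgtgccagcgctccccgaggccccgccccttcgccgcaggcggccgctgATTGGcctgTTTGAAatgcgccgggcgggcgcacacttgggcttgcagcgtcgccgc
Kifc1: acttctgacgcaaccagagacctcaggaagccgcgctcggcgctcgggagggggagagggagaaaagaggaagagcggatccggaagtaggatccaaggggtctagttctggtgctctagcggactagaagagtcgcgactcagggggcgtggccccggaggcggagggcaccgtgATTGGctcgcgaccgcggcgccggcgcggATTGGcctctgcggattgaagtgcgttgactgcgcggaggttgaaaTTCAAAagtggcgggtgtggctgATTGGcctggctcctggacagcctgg
Kif26b: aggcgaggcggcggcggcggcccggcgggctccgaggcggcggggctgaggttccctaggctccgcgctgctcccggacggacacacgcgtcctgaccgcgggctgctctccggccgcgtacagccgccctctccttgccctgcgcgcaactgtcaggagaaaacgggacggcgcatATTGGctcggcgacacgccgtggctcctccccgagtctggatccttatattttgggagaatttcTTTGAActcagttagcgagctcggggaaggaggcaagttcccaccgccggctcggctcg
Kif1c: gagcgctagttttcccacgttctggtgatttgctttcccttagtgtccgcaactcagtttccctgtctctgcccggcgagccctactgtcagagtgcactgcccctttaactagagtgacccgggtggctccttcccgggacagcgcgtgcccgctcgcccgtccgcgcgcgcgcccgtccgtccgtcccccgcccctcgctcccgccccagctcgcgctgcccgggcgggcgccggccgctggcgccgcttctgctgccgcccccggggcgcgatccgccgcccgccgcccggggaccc

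In the Kif11 promoter the CCAAT match began 45 bases and the TTTGAA match 19 bases before the start. Kif18b had CCAAT matches 53 and 30 bases before the start and TTTGAA from base 4 after it. The Kif23 pair was closest, with CCAAT 7 bases before the start and TTTGAA from base 3. Kifc1 had 3 CCAAT matches and TTTGAA from base 2. Kif26b, which was called higher, also held both motifs. The RefSeq starts of Kif2c, Kif14 and Kif4 lie 3867, 1505 and 328 bases inside the outermost annotated start of the gene, so their windows describe an inner start. The same holds in the lists set beside them for the Kif1a window with the single cargo TTTGAA match (19471 bases inside), for Kif17 (11816 bases) and for Kif27 (4175 bases), 1 of the 2 other promoters with both motifs.

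**Figure D3:**
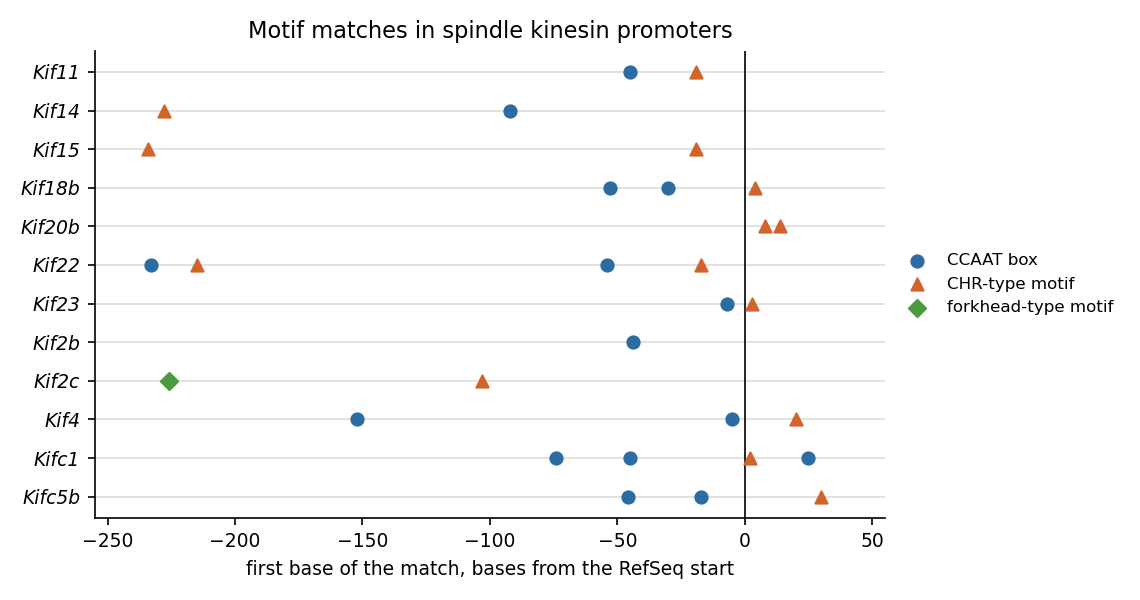
Position of each motif match (first base, in bases from the RefSeq start) in the promoters of the 12 spindle kinesins with any match; circles are CCAAT, triangles the cell cycle homology letters TTTGAA and the diamond the forkhead letters. Triangles are present for 11 of the 13 spindle promoters read, those without being Kif18a and Kif2b.

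Cargo kinesins made up most of the summed kinesin level per length. Per kilobase of exon, Kif1c was the most abundant kinesin in normal glucose at 44.7 CPM per kb, followed by Kif5b, the ubiquitous kinesin heavy chain, at 22.9 CPM per kb, while spindle kinesins ran from 0.351 (Kif18a) to 8.74 CPM per kb (Kif20a). Summed per kb over each role, spindle kinesins gave 33.5, 33.0 and 34.4 CPM per kb in normal glucose and 15.6, 15.2 and 15.1 under high glucose, a change of -54.6%. Cargo kinesins gave 123, 126 and 128 and then 122, 123 and 121 CPM per kb, a change of -3.34%. The remaining members gave 35.0, 37.8 and 37.4 and then 43.5, 43.4 and 42.9 CPM per kb, a change of 17.8%. Without Kif1bp, which is no motor, they gave 23.5, 25.7 and 25.3 and then 31.6, 31.3 and 31.0 CPM per kb, a change of 25.9%. Spindle kinesins therefore made up 17.1% ± 0.36 (SD, n = 3) of the summed kinesin level per kb in normal glucose and 8.47% ± 0.12 (SD, n = 3) under high glucose, or 18.2% and 9.08% of the sum without Kif1bp.

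**Figure D4:**
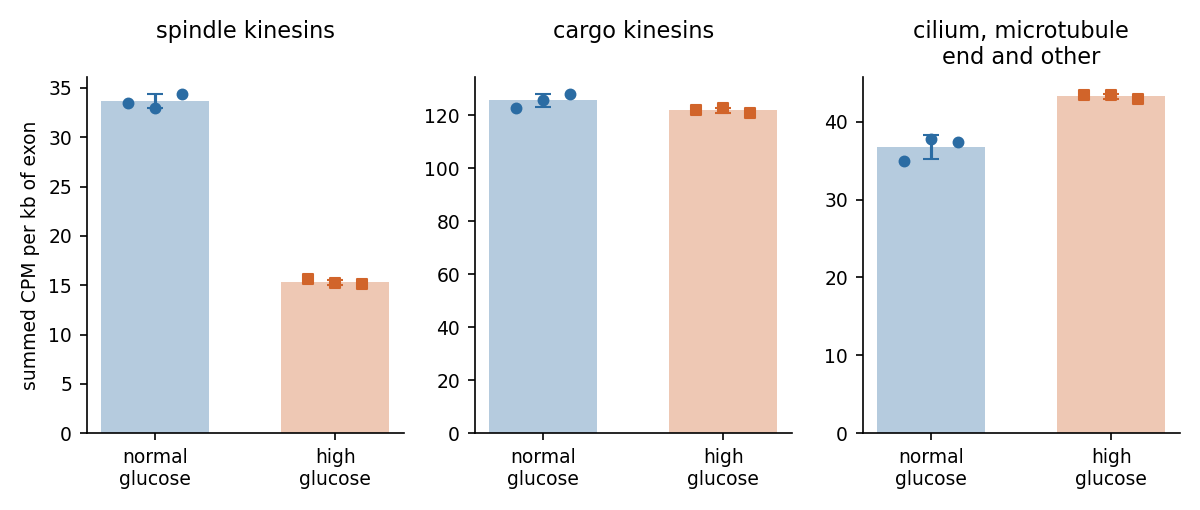
Summed normalized CPM per kb of exon of the spindle, cargo and other kinesins; points are samples, bars are means and error bars 1 SD over 3 samples, and the 3 y axes differ. The spindle sum falls from 33.6 to 15.3, the cargo sum goes from 126 to 122 and the sum of the others, Kif1bp included, from 36.7 to 43.3.

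Kif1c, a fast long-range transporter of vesicles and RNA, was the only cargo kinesin called lower, though the call list for this direction grew under other scalings. It was measured at 318, 319 and 339 CPM in normal glucose and 281, 279 and 276 CPM under high glucose. The groups were apart, with a small log2 fold change of -0.22 ± 0.050 (edgeR adjusted P = 0.00675) that was called in all 13 other fits and was -0.34 with library size scaling. Kif13b, a vesicle carrier, changed most among the cargo kinesins, from 47.8, 53.4 and 53.7 CPM to 74.1, 70.8 and 71.7 CPM. All high glucose samples were higher, at 0.48 ± 0.059 (edgeR adjusted P = 0.000145), and this too was called in all 13 other fits. Kif16b, a motor of early endosomes, went from 14.8, 16.9 and 16.7 CPM to 18.9, 20.6 and 20.4 CPM. Its groups were apart, at 0.31 ± 0.069 (edgeR adjusted P = 0.00684), and the call was lost with library size scaling alone, at 0.19 (edgeR adjusted P = 0.0519, where its other fits reached down to 0.00154).

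The 3 remaining calls were small and did not hold when some single samples were left out. Kif13a, a carrier of endosomal cargo, was at 29.4, 38.3 and 36.2 CPM in normal glucose and 41.8, 41.1 and 40.7 CPM under high glucose. Normal glucose replicate 1 was low in its group, and the log2 fold change of 0.25 ± 0.086 (edgeR adjusted P = 0.0488) was 0.13 without it and 0.14 with library size scaling. Its call was lost without that sample (edgeR adjusted P = 0.0668), without normal glucose replicate 3 (0.0927) and without high glucose replicate 1, 2 or 3 (0.165, 0.131 and 0.133), over a range of 0.0216 to 0.259 in all alternatives. Kif1b, whose isoforms move mitochondria and vesicle precursors, was at 113, 131 and 125 CPM and then 140, 148 and 141 CPM. Groups did not overlap at 0.22 ± 0.062 (edgeR adjusted P = 0.0229), but the call was lost without normal glucose replicate 3 (0.0718) or high glucose replicate 1, 2 or 3 (0.0807, 0.114 and 0.0855; all alternatives 0.0106 to 0.228). Its log2 fold change was 0.14 without normal glucose replicate 1 and 0.10 with library size scaling. Kif3c, an alternative partner of Kif3a, was at 38.9, 41.8 and 44.2 CPM and then 46.1, 48.0 and 47.3 CPM. Its 0.18 ± 0.058 (edgeR adjusted P = 0.0405) was not called without normal glucose replicate 1 or 2 (0.0959 and 0.0826) or high glucose replicate 1, 2 or 3 (0.117, 0.151 and 0.17; all alternatives 0.0371 to 0.411), and was 0.11 without normal glucose replicate 1 and 0.064 with library size scaling. Kif3c also shares 35.3% of its exon bases with the antisense gene 1110002L01Rik, which was not called at -0.27 and stood at 5.88, 8.27 and 8.29 CPM against 6.55, 5.98 and 6.13 CPM. With RLE or upper quartile factors, library size scaling, no filter or halved counts, Kif13a and Kif3c were not called either, nor was Kif1b with library size scaling or no filter.

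The 9 cargo kinesins not called had log2 fold changes from -0.16 (Kif3a) to 0.18 (Kifc2), with 95% intervals that reached no further than -0.42 and 0.55, both bounds being those of the scarce Kif17. The value of Kifc2 ran from 0.078 to 0.27 with a sample left out and was 0.070 with library size scaling. Kif3a and Kif3b, the paired motors of intraflagellar transport, were at -0.16 (-0.22 to -0.086 with a sample left out) and 0.039. Of the 3 kinesin heavy chain genes of the Kif5 group, Kif5b was at -0.13 (95% interval -0.25 to -0.0081; edgeR adjusted P = 0.0975), Kif5c at -0.12 (-0.22 without normal glucose replicate 1, -0.027 without normal glucose replicate 2) and Kif5a at 0.0033. Kif5b had 187, 184 and 179 CPM in normal glucose and 164, 177 and 162 CPM under high glucose. Its groups did not overlap, and it was called lower by DESeq2 (adjusted P = 0.0477), with upper quartile factors (0.032) and with library size scaling (0.00512), over a range up to 0.251. Kif1a, at -0.13, was called lower without normal glucose replicate 1 (edgeR adjusted P = 0.0152, all alternatives 0.0152 to 0.427) and with library size scaling, as was Kif3a with library size scaling. Without normal glucose replicate 1 Kif1a was at -0.22. With library size scaling Kif1a, Kif3a and Kif5b were at -0.25, -0.27 and -0.24.

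Among kinesins of cilia, microtubule ends and other settings, Kif26b had the largest rise of the family. This atypical kinesin was at 81.4, 103 and 103 CPM in normal glucose and 167, 167 and 162 CPM under high glucose. Normal glucose replicate 1 was the lowest sample, and the groups did not overlap, with a log2 fold change of 0.79 ± 0.085 (edgeR adjusted P = 6.36e-05). A rise at least as large was seen in 725 tested genes (3.81%). Kif26a, its relative, was at 15.3, 16.6 and 18.7 CPM and then 21.6, 19.5 and 20.1 CPM. The gap between its groups was narrow, and the change of 0.27 ± 0.078 (edgeR adjusted P = 0.0229) was not called without normal glucose replicate 1 or 2 (0.0571 and 0.0662) or high glucose replicate 1 or 3 (0.128 and 0.078; all alternatives 0.0121 to 0.138), nor with library size scaling, at 0.16, or no filter.

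Kif7, which sits at the tip of the primary cilium in Hedgehog signalling, was at 14.5, 14.1 and 14.6 CPM and then 19.1, 17.8 and 19.0 CPM. Groups were well apart at 0.37 ± 0.058 (edgeR adjusted P = 0.000833), called in all 13 other fits. The antisense gene 9330171B17Rik shares 19.1% of Kif7's exon bases and had no more than 22 counts in any sample. Kif27, a scarce relative of Kif7, was at 0.391, 0.515 and 0.476 CPM and then 0.670, 0.851 and 0.579 CPM, from 49 to 99 counts. Its 0.60 ± 0.20 (edgeR adjusted P = 0.0434) was not called without normal glucose replicate 1 or 3 (0.107 and 0.0928) or high glucose replicate 1 or 2 (0.0968 and 0.165; all alternatives 0.0391 to 0.165), nor by DESeq2, with upper quartile factors, with library size scaling or without a filter. Its antisense neighbour Gm26555, on 6.37% of its exon bases, had 5 to 26 counts and was called higher at 1.43. Kif21a, which restrains microtubule growth, was at 15.5, 16.9 and 16.7 CPM and then 22, 21.7 and 22.9 CPM. All 3 high glucose samples were higher, at 0.44 ± 0.058 (edgeR adjusted P = 0.000282), and it was called in all 13 other fits.

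Kif2a dismantles microtubules as its spindle relative Kif2c does, but works in dividing and resting cells alike. Its place outside the spindle list was a choice, and its fall was smaller than any in that list (-1.34 to -0.89). Kif2a was the only member of this set called lower. It was at 48.3, 47.6 and 43.1 CPM in normal glucose and 37.7, 41.5 and 38.1 CPM under high glucose. The groups were close without overlap, and the change of -0.25 ± 0.063 (edgeR adjusted P = 0.0139) was not called without high glucose replicate 1 or 3 (0.0538 and 0.0555; all alternatives 0.00135 to 0.0555). Kif2a shares 19.2% of its exon bases with Dimt1 on the opposite strand, which was at -0.046 and not called. The 6 members not called ran from -0.042 (Kif24) to 0.52 (Kif19a), with 95% intervals between -0.41 and 0.96. Of these 6, 3 (Kif9, Kif19a and Kif21b) had groups without overlap, high above normal. Among all tested genes 25.1% had that order and 21.3% the opposite one. Kif1bp, which also stands in the list of cargo partners, was at 0.012 ± 0.048. Kif12 had 0 counts in every sample and Kif28 had 1, 11 and 5 counts against 6, 3 and 2, too few to test.

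Most partners of the spindle kinesins were called lower as well. The counts in each list stand beside 14.5% lower and 16.9% higher among all tested genes. Of 16 spindle partners 14 were called lower and 1 higher, with a median of -1.03. Cenpe, counted among these 16, is itself a spindle kinesin whose symbol lies outside the pattern, and was lower at 14.1, 15.0 and 13.8 CPM in normal glucose and 6.82, 7.21 and 6.75 CPM under high glucose, a change of -1.05. Prc1, which recruits Kif4 to the midzone, was at 31.4, 33.4 and 32.9 CPM and then 15.3, 14.5 and 14.9 CPM. Racgap1, which joins Kif23 in centralspindlin, was at 24.9, 26.8 and 26.4 CPM and then 13.6, 13.8 and 13.6 CPM. Both were lower in each high glucose sample, at -1.13 and -0.93. Numa1, a pole protein that also belongs to the nucleus of resting cells, was the member called higher, at 0.42, and Ckap5, a microtubule polymerase, was not called at 0.020. All 7 proliferation genes were called lower, with a median of -0.84. Foxm1 had 19.8, 21.9 and 23.6 CPM in normal glucose and 13.2, 13.3 and 14.0 CPM under high glucose, at -0.69, a smaller fall than that of any tested spindle kinesin. The difference between these 2 sizes was not tested.

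Of 20 cargo partners 5 were called lower and 0 higher by edgeR (2 higher at an unadjusted P under 0.05; 4 lower and 1 higher by DESeq2), with a median of -0.025. Fez1, an adaptor of the Kif5 heavy chains, stood apart at 62.2, 55.1 and 61.4 CPM and then 31.1, 31.7 and 31.4 CPM. High glucose samples were nearly equal and far below the others, at -0.92 ± 0.059 (edgeR adjusted P = 1.65e-06). The lysosome adaptors Arl8a and Arl8b were at -0.32 and -0.22, and the light chains Klc3 and Klc4 at -0.32 and -0.18, while the abundant light chain Klc1 was not called. Dynein and dynactin, which move the other way along microtubules, had 6 of 24 genes called lower and 2 higher (6 and 3 by DESeq2), against 14.5% and 16.9% of all tested genes, with a median of -0.049. Dync1h1, the dynein heavy chain, was among the higher ones at 276, 305 and 319 CPM and then 490, 452 and 454 CPM. Its groups were far apart, at 0.63 ± 0.065 (edgeR adjusted P = 4.52e-05). Of 18 intraflagellar transport genes 1 was called lower, Wdr35 at -0.50, and 4 higher, led by Dync2h1 at 0.67, with a median of 0.0031.

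**Figure D5:**
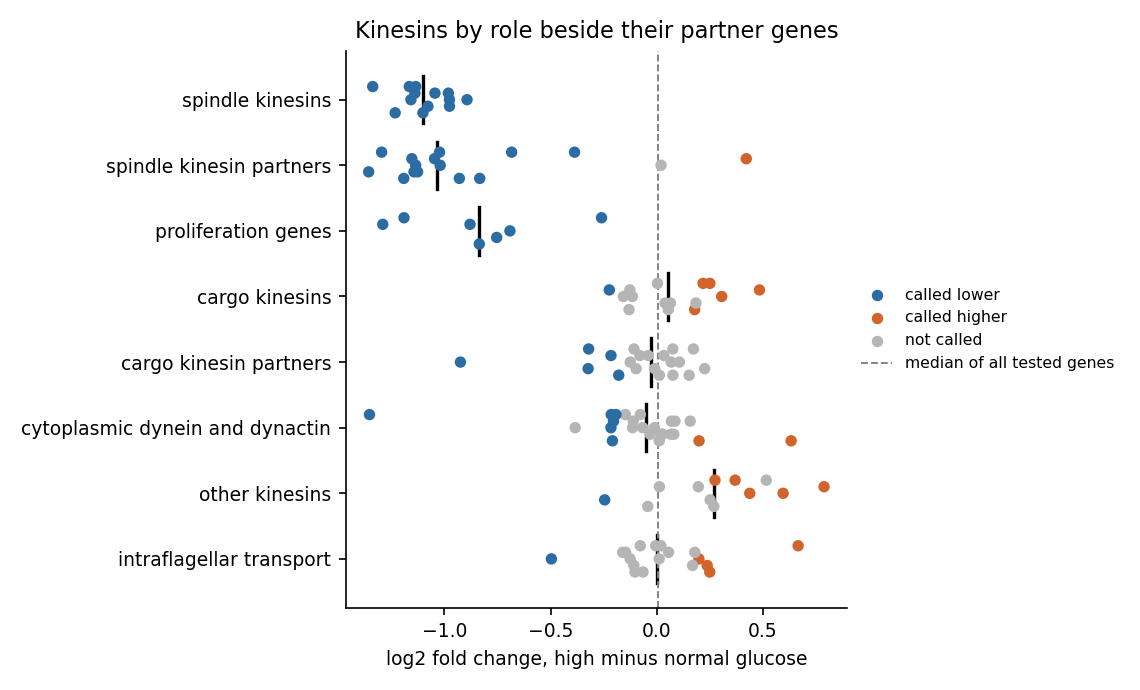
Log2 fold change of high minus normal glucose (x axis) for each tested gene of the kinesin roles and partner lists; blue points were called lower, orange higher and grey not called, black bars are list medians and the dashed line the median of all 19015 tested genes (0.0062). Spindle kinesins, their partners and proliferation genes have medians of -1.10, -1.03 and -0.84, while the other lists have medians from -0.049 to 0.27. Under library size scaling the cargo kinesin median, 0.054, is -0.061 and that of the other kinesins, 0.27, is 0.16.

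Markers of other cell types moved in the same comparison. Of 10 fibroblast markers 8 were called higher and 1, Thy1, lower, with a median of 0.53. Smooth muscle and pericyte markers summed to 416, 381 and 412 CPM against 324, 320 and 336 CPM, mostly Acta2, with 4 of 6 called lower and 1 higher. Among all tested genes 14.5% were called lower and 16.9% higher. Macrophage markers summed to 9.35, 8.33 and 9.04 CPM against 5.72, 6.00 and 6.52 CPM, with 2 of 3 tested called lower by edgeR and 1 by DESeq2, Csf1r the most abundant and Ptprc at 0 in 5 of 6 samples. Keratinocyte markers summed to 4.78, 5.01 and 4.03 CPM against 5.04, 4.59 and 4.80 CPM, nearly all of it Krt10 and Trp63, with 1 of 3 tested called higher and Krt1 at 0 in 5 of 6 samples. The one called was Krt5, to which DESeq2 gave no adjusted P, with 2, 2 and 2 counts and then 23, 12 and 14, and Krt14, too low to be tested, had 2, 0 and 0 counts and then 35, 9 and 31. Both were higher in each high glucose sample. Neuron and Schwann cell markers summed to 28.2, 27.6 and 28.7 CPM against 22.8, 23.3 and 23.6 CPM, with Tubb3 the most abundant. Of these markers 3 of 6 were called lower by edgeR and 2 by DESeq2. Whether a change in the mix of cells had a part in the kinesin results was not tested.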

How the data were processed

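Poly(A) RNA of 6 cultures was sequenced. The authors trimmed reads with Trimmomatic, aligned them with HISAT2 to GRCm38 and deposited StringTie counts per gene, without normalization; tool versions and the strand setting are not given in the sources used here. Symbols were matched for 55141 of 55487 identifiers. Counts were tested with edgeR 4.0.16 (R 4.3.3, limma 3.58.1) by the quasi-likelihood test, after filterByExpr (minimum count 10, minimum total 15), TMM factors and Benjamini-Hochberg adjustment over all 19015 tested genes, with group as the only term and a threshold of 0.05. The fit was run on counts simulated from its own dispersions with a small set of changes balanced in both directions, which does not test the scaling. Levels are CPM with TMM factors, and lengths are exon bases of the GENCODE annotation. All members were accounted for by rule: sample values for every tested spindle kinesin and every other called kinesin, fold changes or ranges for those tested and not called, and counts for those not tested. Members and lists were chosen with earlier results of these data known. Replicates differed beyond sampling noise (chi-square per degree of freedom at least 9.76), and the biological coefficient of variation was 8.44%. Alternatives were DESeq2 1.42.0, RLE, upper quartile or no factors, no filter, a replicate block, halved counts, each sample left out, and an absolute log2 fold change of at least 1. The labels and the study's methods differ on the extraction reagent and the sequencer, and which applies was not settled.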

Additional observations from a re-analysis of the deposited data

How the results depend on the processing

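All 13 spindle calls held in each of the 13 other fits, and 9 of them passed an absolute log2 fold change of at least 1. Of 25 called kinesins, 18 kept direction and call throughout, 7 lost the call in some fit and 0 changed sign. The spindle median was -1.14 with upper quartile factors, -1.22 with library size scaling and -1.15 to -1.10 with single samples left out. Cargo kinesins called lower numbered 2 with DESeq2, 2 with upper quartile factors, 4 with library size scaling and 1 to 2 with a sample left out. Cargo kinesins called higher numbered 3 with RLE, upper quartile factors or halved counts, 1 with library size scaling, 2 without a filter and 2 to 4 with a sample left out. Others called lower numbered 0 to 1 with a sample left out. Others called higher numbered 4 with DESeq2, 3 with library size scaling or without a filter and 3 to 4 with a sample left out. With the fold threshold of 1, 0 cargo and 0 other kinesins were called in either direction, and 542 genes lower and 395 higher overall. Medians under library size scaling were -0.061 for cargo and 0.16 for other kinesins, and leaving out samples gave 0.037 to 0.087 and 0.19 to 0.33. Of all genes, 4884 were lower and 1819 higher with library size scaling, against 2757 and 3212, and 2048 to 3065 and 1988 to 3149 with a sample left out. The cause of the lost calls was not tested.

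Kinesins not called whose sign changed in some fit were close to 0 with TMM factors and all 6 samples, though not in every fit. Under library size scaling Kif17 was -0.049, Kif3b -0.076, Kifc3 -0.061, Kif5a -0.11 and Kif1bp -0.10. With upper quartile factors Kif3b was -0.0038, Kif5a -0.039 and Kif1bp -0.030. Without a filter Kif5a was -0.018 and Kif1bp -0.0082, with halved counts -0.015 and -0.0073, and Kif5a was -0.0028 with DESeq2 and -0.0088 with RLE. With single samples left out Kif17 ran from -0.094 to 0.14, Kif3b from -0.020 to 0.056, Kif5a from -0.089 to 0.10, Kif1bp from -0.025 to 0.012 and Kif24 from -0.23 to 0.095. The cause was not tested.

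The labels number replicates alike in both groups, but same-numbered samples did not deviate together (correlations -0.0248, 0.00377 and 0.0127 across genes), and 2 of 6 samples correlated best with their own number. With a replicate block, 2418 genes were lower and 2909 higher, 4 cargo and 4 other kinesins were called higher, and Kif5a was -0.0012. Kif13a and Kif27 were not called with it (edgeR adjusted P = 0.0518 and 0.0517), and no other kinesin call changed. Kif6, Kif17, Kif19a and Kif27 lay under 1 CPM.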
